A study of Mus musculus with 12 samples.

Results

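The genes described here encode the constitutive proteasome, its activators and its dedicated assembly chaperones, and they were followed across 4 groups of mouse macrophages. They were chosen by symbol alone: Psma1 to Psma7, Psmb1 to Psmb7, Psmc1 to Psmc6, Psmd1 to Psmd14, Psme1 to Psme4 and Psmg1 to Psmg4. This gave 42 of the 41388 genes in the deposited tables, and all 42 passed the filter on low counts. No measured value entered this rule, but the set was chosen with earlier results of these data known.

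RNA sequencing was done on peritoneal macrophages drawn to the abdomen of mice by thioglycolate, isolated on day 4 and plated. On the following day they received vehicle, which was BSA in PBS, or 250 µM palmitate, a saturated fatty acid, plus 100 ng/ml LPS, a cell wall component of Gram-negative bacteria, for 8 h. All groups carried LysM-Cre, a recombinase expressed from a myeloid promoter. One genotype carried only that driver (control) and the other was labelled as a PPARγ knockout made with it, and each of the 4 groups had 3 libraries. The labels do not say whether replicates came from separate mice or cultures, so p-values measure the spread between these libraries.

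The proteasome degrades proteins tagged with ubiquitin. Its core particle is a barrel of outer alpha rings, which gate the entrance, and inner beta rings, which hold the proteolytic sites. A regulatory cap, with a ring of ATPases that unfold substrates and a set of non-ATPase subunits that bind and strip ubiquitin, sits on the ends of the barrel. Other activators can take the place of the cap. In macrophages exposed to interferon or bacterial products, 3 catalytic beta subunits are partly replaced by inducible ones, giving the immunoproteasome, and the PA28 activator encoded by Psme1 and Psme2 is induced with them, which alters the peptides available for MHC class I.

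The promoters of the activators and the alpha subunit with the highest responses are shown first, since the treatment results turn on these genes. Promoter windows are from RefSeq (GRCm38.p6) and run from 250 bases before a transcription start site to 50 bases after it. Of the 42 genes, 35 had a window. The windows are printed 5′ to 3′ on the gene's strand in lower case, and capitals mark a match on either strand to a form of the interferon response element, which is GAAA, any 2 bases, and GAAA again. Psme1 (chr14:55578244-55578543, plus strand) had 1 match, on the reverse strand, starting 9 bases after the start site. Psme2 (chr14:55591052-55591351, minus strand) had no match to this motif, and neither had Psma5 (chr3:108256676-108256975, plus strand).
Psme1: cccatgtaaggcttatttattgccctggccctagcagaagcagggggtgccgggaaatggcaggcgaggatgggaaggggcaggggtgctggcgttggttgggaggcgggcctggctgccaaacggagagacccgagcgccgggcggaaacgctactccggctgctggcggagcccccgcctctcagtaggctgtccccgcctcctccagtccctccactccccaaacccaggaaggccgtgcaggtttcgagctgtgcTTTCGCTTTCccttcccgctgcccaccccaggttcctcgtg
Psme2: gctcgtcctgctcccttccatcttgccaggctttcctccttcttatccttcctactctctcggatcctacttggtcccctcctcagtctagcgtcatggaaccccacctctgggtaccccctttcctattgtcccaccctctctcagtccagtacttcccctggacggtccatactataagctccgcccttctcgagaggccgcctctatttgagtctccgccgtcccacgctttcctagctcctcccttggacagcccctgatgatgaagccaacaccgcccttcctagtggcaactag
Psma5: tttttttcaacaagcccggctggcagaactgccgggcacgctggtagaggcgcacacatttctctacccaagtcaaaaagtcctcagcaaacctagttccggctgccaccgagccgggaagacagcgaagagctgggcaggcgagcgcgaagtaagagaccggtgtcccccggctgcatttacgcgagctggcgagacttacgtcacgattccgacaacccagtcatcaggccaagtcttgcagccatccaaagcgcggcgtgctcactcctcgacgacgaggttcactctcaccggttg
A match to these letters is a description of the window, not evidence of a bound factor.

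The interferon response element was found in the windows of 5 of the 35 genes (14.3%), which were Psmb3, Psmd4, Psmd9, Psme1 and Psmg4, against 4.0% of all 27025 genes with a window and 4.0% of the 9702 tested genes with one. The motif TTCNNNGAA, a STAT site, was found in 2 (5.7%, against 9.6% of all and 8.3% of tested genes). The motif CCAAT, bound by NF-Y, was found in 12 (34.3%, against 41.1% and 42.8%). The ETS motif CCGGAAG was found in 14 (40%, against 9.9% and 20.7%). It occurred in 9 of 17 cap genes and in 1 of 11 core genes. Stretches around this match are shown for 5 cap genes, with the match in capitals as it reads on the gene's strand, so that a match on the other strand reads CTTCCGG.
Psmd11: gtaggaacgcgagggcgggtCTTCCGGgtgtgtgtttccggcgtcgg
Psmd12: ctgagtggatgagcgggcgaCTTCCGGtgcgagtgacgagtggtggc
Psmc6: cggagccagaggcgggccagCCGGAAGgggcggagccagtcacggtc
Psmc2: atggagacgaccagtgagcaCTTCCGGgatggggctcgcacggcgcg
Psmd6: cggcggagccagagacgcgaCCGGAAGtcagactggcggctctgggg
These stretches lay at chr11:80428584-80428630, chr11:107479491-107479537, chr14:45329704-45329750, chr5:21785171-21785217 and, on the minus strand, chr14:14120964-14121010. In Psmd11 the match began 11 bases before the start site, and in Psmd12 it began 17 bases before it.

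The core of the antioxidant response element, TGACNNNGC, which the proteasome gene activator Nrf1 and its relative Nrf2 are known to bind, was found in 6 of the 35 genes (17.1%), against 14.0% of all genes and 17.3% of tested genes. Those were Psmb5, Psmb6, Psmc6, Psmd12, Psmd9 and Psme4. A pair of catalytic core subunits, a cap chaperone and the activator that differed between genotypes are shown, with the match in capitals.
Psmb5: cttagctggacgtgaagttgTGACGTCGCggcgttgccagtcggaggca
Psmb6: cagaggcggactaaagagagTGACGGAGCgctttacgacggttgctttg
Psmd9: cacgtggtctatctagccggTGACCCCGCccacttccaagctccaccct
Psme4: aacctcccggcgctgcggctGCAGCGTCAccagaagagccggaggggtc
They lay at chr14:54618014-54618062 on the minus strand, and at chr11:70525328-70525376, chr5:123228139-123228187 and chr11:30771748-30771796 on the plus strand. Psmb5 and Psmb6 rose in both genotypes, while Psmd9 had one of the smallest responses, as given below for each.

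The libraries held 17960457 to 22696385 counts. Pparg, the targeted gene, went against the label: it had 62.3, 61.6 and 61.0 TMM-normalised CPM (counts scaled to the effective size of the library) in vehicle controls and 111, 91.0 and 95.9 in the vehicle libraries labelled knockout. Gene-level counts include exons outside a deleted part and do not check the deletion, and these libraries are therefore called labelled knockout throughout. All 8 macrophage markers were detected, summing to 6430 ± 422, 7620 ± 1060, 7540 ± 465 and 7650 ± 143 CPM (SD, n = 3) in vehicle controls, labelled knockout vehicle, stimulated controls and stimulated labelled knockout libraries. In the same order, 8 neutrophil markers summed to 89.5, 119, 128 and 169 CPM, with Ly6g at 0 in every library, and 10 fibroblast or mesothelial markers summed to 130, 173, 152 and 264 CPM, reaching 348 in 1 library. Single macrophage markers moved in opposite directions, which their sum hides. With palmitate plus LPS in controls their log2 differences ran from -0.97 (Itgam) to 2.95 (Cd14). Between the stimulated genotypes they ran from -0.49 (Cd14) to 1.22 (Fcgr1). Replicate 1 of the labelled knockout vehicle group stood apart at 31.8 on the second principal component, against -6.92 and -10 for the others of its group. In that library 36 of the 42 genes were higher than in every other vehicle library, including all 14 core genes. The 42 genes summed to 6518 CPM in it, against 4742 to 5172 in the other vehicle libraries, and 30 ribosomal protein genes summed to 6931 CPM, against 4397 to 4937. Results that rest on it are given with and without it. In bulk RNA, a change in cell makeup and a change in RNA per cell cannot be told apart.

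Palmitate plus LPS raised nearly the whole set. In controls, 40 of 42 genes rose, none fell, and Psmg1 and Psmg2 did not pass the test, while 32% of all 12914 tested genes rose and 34.7% fell. The test was edgeR's quasi-likelihood test, called at a Benjamini-Hochberg adjusted p under 0.05 over all tested genes. The median log2 difference was 0.94 over the 42 genes and -0.05 over all genes. The 2 groups' libraries did not overlap for 41 of the 42 genes. Genes without overlap were not counted over all tested genes, so it was not shown that this share is unusual. Among 30 ribosomal protein genes, a chosen list with a lower median response of 0.33, there were 20. In the libraries labelled knockout, 37 rose and 1, Psmg1, fell, while 33.7% of all tested genes rose and 35.6% fell, and the medians were 0.76 and -0.06. The same 37 genes rose in both genotypes. Without replicate 1 of the labelled knockout vehicle group, 39 rose and 1 fell there, and the median was 0.89. Scaling moved the smaller responses: with library totals in place of TMM factors the median of all genes was -0.38 in controls and -0.42 in labelled knockout libraries, 33 and 27 of the 42 genes rose, and 0 and 4 fell.

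**Figure D1:**
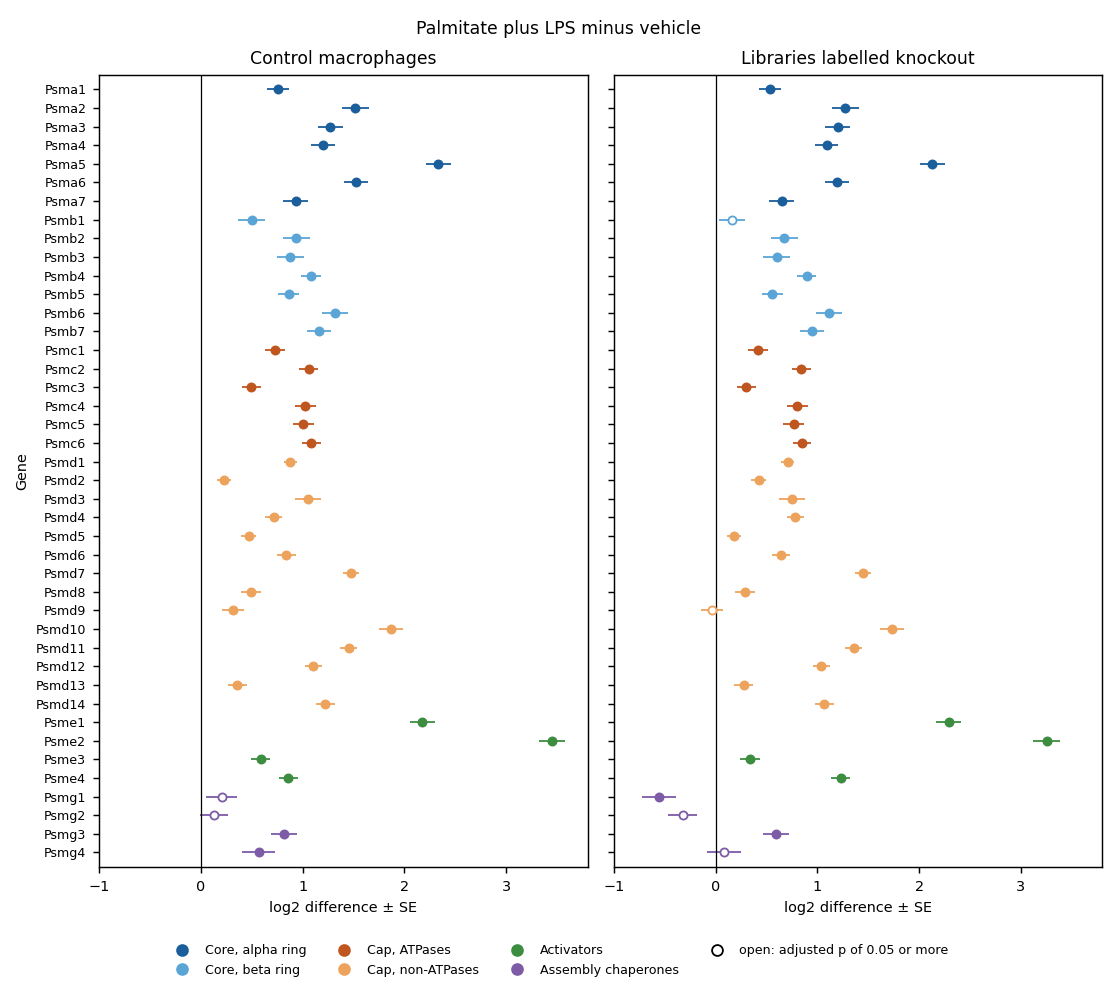
Log2 difference between palmitate plus LPS and vehicle (± SE, 3 libraries a group) for each of the 42 genes, in control libraries (left) and libraries labelled knockout (right), coloured by class, with open symbols where the adjusted p was 0.05 or more. Psme2 lies farthest to the right at 3.45 and 3.25, and the chaperone Psmg1 lies on opposite sides of 0 in the panels.

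By class, all 7 alpha subunits, all 7 beta subunits, all 6 ATPases, all 14 non-ATPase cap genes and all 4 activators rose in controls, against 2 of 4 chaperones. The median log2 differences were 1.27, 0.94, 1.02, 0.86, 1.52 and 0.39 in that order. In the labelled knockout libraries they were 1.19, 0.68, 0.79, 0.73, 1.76 and -0.12, with 7, 6, 6, 13, 4 and 1 genes called higher. The core as a whole had a median of 1.12 and the cap 0.94 in controls, and differences of 1 or more were found in 8 of 14 core genes and 10 of 20 cap genes. Summed over genes, the core went from 1740 ± 106 to 3860 ± 283 CPM in controls (2.22-fold) and from 1990 ± 456 to 3750 ± 82.0 CPM in labelled knockout libraries (1.89-fold). The cap went from 2940 ± 115 to 5200 ± 107 CPM (1.77-fold) and from 3220 ± 408 to 5140 ± 56.5 CPM (1.6-fold). The 4 activators together moved most, from 184 ± 8.55 to 1100 ± 104 CPM (6.01-fold) and from 211 ± 32.8 to 1240 ± 38.8 CPM (5.88-fold). The chaperones moved least, from 47.4 ± 1.33 to 65.7 ± 5.89 CPM (1.39-fold) and from 53.7 ± 12.1 to 57.2 ± 1.84 CPM (1.06-fold).

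**Figure D2:**
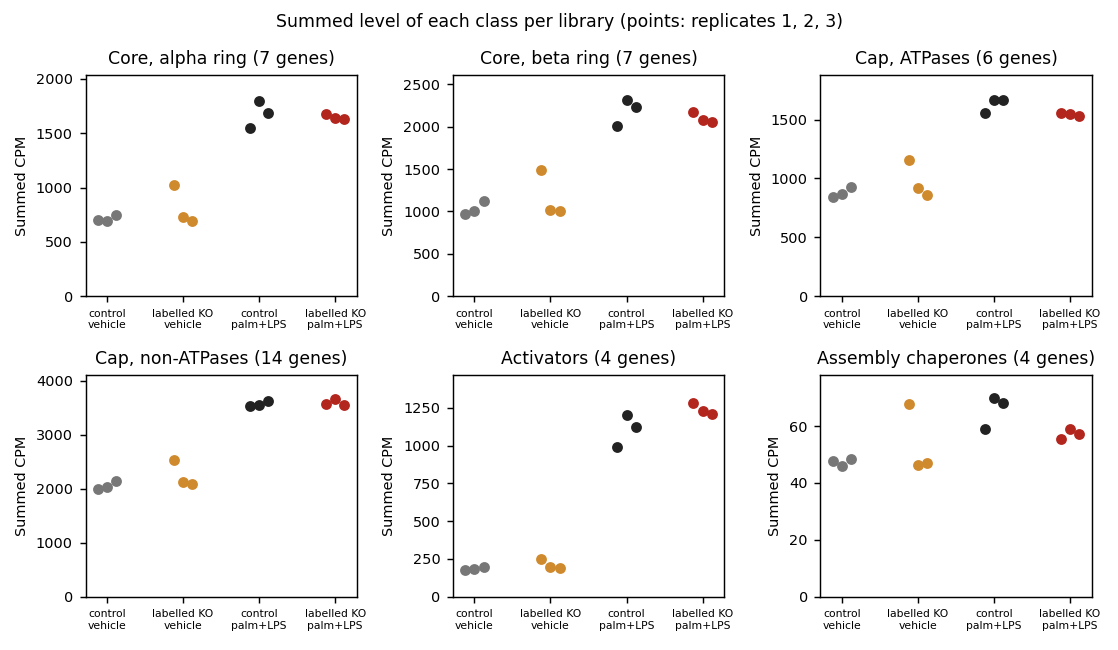
Summed TMM-normalised CPM of each class in each of the 12 libraries, with the 3 replicates of a group side by side and axes starting at 0. In every class but the chaperones the stimulated libraries lie above all vehicle libraries, and replicate 1 of the labelled knockout vehicle group is the highest vehicle library in each panel.

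The alpha ring was led by Psma5, the alpha subunit whose promoter is shown above (chr3:108256926-108279974 in the deposited tables). Psma5 had 27.7, 29.7 and 31.1 CPM in vehicle controls, 45.4, 32.8 and 30.4 in labelled knockout vehicle libraries, 140, 160 and 147 in stimulated controls and 164, 152 and 157 in stimulated labelled knockout libraries. Every stimulated library was thus above every vehicle library, and the log2 differences were 2.33 ± 0.12 in controls (edgeR adjusted p = 9.93e-11) and 2.13 ± 0.12 in labelled knockout libraries (adjusted p = 2.47e-10). Psma6 had 106, 103 and 116 CPM in vehicle controls, 149, 107 and 106 in labelled knockout vehicle, 281, 338 and 316 in stimulated controls and 286, 269 and 274 in stimulated labelled knockout libraries. It rose by 1.53 ± 0.12 and 1.19 ± 0.12 on the log2 scale, and the groups again did not overlap. Psma2, a subunit of the gate region, had 97.0, 96.2 and 107 CPM in vehicle controls, 157, 107 and 98.6 in labelled knockout vehicle, 266, 312 and 283 in stimulated controls and 299, 290 and 286 in stimulated labelled knockout libraries. It rose by 1.52 ± 0.13 and 1.28 ± 0.13. The smallest response of the ring was that of Psma1, at 0.76 ± 0.11 and 0.54 ± 0.11, so that subunits present in equal number in the ring differed in the size of their response.

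In the beta ring the highest response was that of Psmb6, which carries the caspase-like site (chr11:70525367-70527858). Its levels were 469, 481 and 550 CPM in vehicle controls, 714, 486 and 482 in labelled knockout vehicle, 1140, 1320 and 1270 in stimulated controls and 1280, 1190 and 1180 in stimulated labelled knockout libraries. The lowest stimulated library exceeded the highest vehicle library, with log2 differences of 1.32 ± 0.13 (edgeR adjusted p = 1.98e-07) and 1.12 ± 0.13 (1.15e-06). Psmb7, which carries the trypsin-like site, had 63.9, 69.3 and 72.9 CPM in vehicle controls, 96.2, 69.8 and 65.0 in labelled knockout vehicle, 144, 159 and 159 in stimulated controls and 151, 145 and 148 in stimulated labelled knockout libraries. It rose by 1.16 ± 0.12 and 0.94 ± 0.12. Psmb7 overlaps Nek6 on the opposite strand, which had 10630 counts over the 12 libraries. The strand setting of the counting is not given, so counts of Psmb7 could include reads of Nek6. Psmb4, a structural subunit, rose by 1.08 ± 0.09 and 0.90 ± 0.09, from 38.4 to 44.5 CPM over vehicle controls to 79.4 to 90.2 over stimulated controls. Psmb5, which carries the chymotrypsin-like site, rose less, by 0.86 ± 0.10 and 0.56 ± 0.10. Psmb1, a structural subunit, had the smallest response of the ring. It rose in controls by 0.50 ± 0.13 (edgeR adjusted p = 0.0034), and in labelled knockout libraries the difference was 0.16 ± 0.13 (0.28). The difference between those responses was -0.34 ± 0.19 (0.25), so it was not shown that the genotypes differed. Psmb1 in labelled knockout vehicle replicate 1, at 307 CPM, was above all 6 stimulated libraries, which lay between 252 and 292. Without that library Psmb1 rose in the labelled knockout group as well, by 0.39 ± 0.07 (edgeR adjusted p = 9.38e-06).

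The 3 inducible catalytic subunits, which are not among the 42 genes, gave a scale for these changes. Psmb8, Psmb9 and Psmb10 rose by 2.93 ± 0.12, 2.62 ± 0.13 and 2.94 ± 0.13 in controls and by 2.61 ± 0.12, 2.62 ± 0.13 and 3.0 ± 0.13 in labelled knockout libraries. Per length of exon, the Psmb8 level relative to Psmb5 was 0.428 ± 0.0257 in vehicle controls and 1.79 ± 0.119 in stimulated controls (SD, n = 3). The ratio of Psmb10 to Psmb7 went from 1.29 ± 0.0684 to 4.44 ± 0.326, and that of Psmb9 to Psmb6 from 0.0348 ± 0.000237 to 0.0859 ± 0.0061. Within each library, then, the constitutive subunits rose less than their inducible counterparts, and Psmb6 transcript stayed far above Psmb9. In labelled knockout libraries the ratios were 0.509 ± 0.0143, 1.49 ± 0.0323 and 0.039 ± 0.00229 in vehicle and 2.12 ± 0.0948, 6.17 ± 0.233 and 0.11 ± 0.00231 with palmitate plus LPS, for the pairs with Psmb5, Psmb7 and Psmb6. For all 3 pairs and in both treatments, all 3 labelled knockout libraries were above all 3 controls. In each of these 6 comparisons the exact two-sided permutation p was 0.1, the smallest that 3 against 3 libraries allow, and the Benjamini-Hochberg adjusted value was also 0.1. In replicate 1 of the labelled knockout vehicle group the ratios were 0.507, 1.46 and 0.0372, each close to those of its group, so this library did not stand apart in them. The ratios with Psmb7 carry the limit of its overlap with Nek6 given above.

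The ATPases of the cap moved within a narrow range. Psmc6 had 99.8, 96.9 and 105 CPM in vehicle controls, 128, 105 and 96.6 in labelled knockout vehicle, 206, 212 and 222 in stimulated controls and 193, 203 and 197 in stimulated labelled knockout libraries. Psmc2 had 144, 147 and 153, then 192, 156 and 145, then 297, 318 and 310, and then 304, 289 and 290 CPM in the same group order. Psmc4 had 170, 173 and 190, then 238, 186 and 171, then 340, 375 and 371, and then 347, 347 and 345 CPM. For none of these 3 ATPases did vehicle and stimulated libraries overlap, and they rose by 1.09 ± 0.09, 1.06 ± 0.09 and 1.03 ± 0.10 in controls and by 0.85 ± 0.09, 0.84 ± 0.09 and 0.80 ± 0.10 in labelled knockout libraries. Psmc5 rose by 1.01 ± 0.11 and 0.77 ± 0.10. The lowest responses were those of Psmc1 (0.73 and 0.42) and Psmc3 (0.50 and 0.30), although all 6 ATPases are needed once each in the ring. Counts of Psmc3 could include reads of Slc39a13, which overlaps it on the opposite strand and had 5051 counts over the 12 libraries, since the strand setting of the counting is not given in the sources used here.

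The non-ATPase cap genes ranged from Psmd2 at 0.23 ± 0.07 to Psmd10 at 1.87 ± 0.12 in controls. Psmd10, also called gankyrin, is an assembly chaperone of the cap and not part of the finished particle (chrX:140948429-140956728). Psmd10 had 47.5, 46.2 and 49.7 CPM in vehicle controls, 65.4, 48.5 and 44.3 in labelled knockout vehicle, 164, 186 and 175 in stimulated controls and 182, 172 and 171 in stimulated labelled knockout libraries. All stimulated libraries lay above 160 CPM and all vehicle libraries below 66, with differences of 1.87 ± 0.12 (edgeR adjusted p = 7.45e-10) and 1.73 ± 0.12 (1.66e-09). The other cap assembly chaperones, Psmd5 and Psmd9, moved far less, with 0.47 ± 0.07 and 0.31 ± 0.11 in controls. In labelled knockout libraries Psmd5 differed by 0.18 ± 0.07 (edgeR adjusted p = 0.035) and Psmd9 by -0.04 ± 0.11 (0.78). The rise of Psmd5 there did not pass the test without the filter on low counts, with the strict filter or when only the 2 groups were fitted. It was also lost without vehicle control replicate 2, labelled knockout vehicle replicate 2, or stimulated labelled knockout replicate 2 or 3. Its direction turned under other scalings (-0.19 with library totals, edgeR adjusted p = 0.043, and -0.06 with upper-quartile scaling). The rise of Psmd9 in controls was lost with library totals (-0.0172), upper-quartile scaling or the strict filter. The same held without vehicle control replicate 1 or 2 or stimulated control replicate 2. The interaction test of Psmd9 gave -0.35 ± 0.15 (0.16).

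Lid subunits gave the next highest responses. Psmd7, a partner of the deubiquitinase Psmd14, had 133, 134 and 142 CPM in vehicle controls, 162, 135 and 135 in labelled knockout vehicle, 374, 387 and 378 in stimulated controls and 391, 394 and 391 in stimulated labelled knockout libraries. It rose by 1.48 ± 0.08 and 1.45 ± 0.08, and replicates of a stimulated group lay within a few percent of each other. Psmd11, a lid subunit that clamps the cap onto the core, had 88.2, 89.6 and 91.2 CPM in vehicle controls, 113, 93.3 and 92.6 in labelled knockout vehicle, 239, 241 and 258 in stimulated controls and 254, 254 and 256 in stimulated labelled knockout libraries. It rose by 1.45 ± 0.08 and 1.36 ± 0.08. Psmd14 rose by 1.22 ± 0.10 and 1.07 ± 0.10, and Psmd12 by 1.11 ± 0.08 and 1.04 ± 0.08. The scaffold subunits of the base behaved unequally: Psmd1 rose by 0.88 ± 0.07 and 0.71 ± 0.06, and Psmd2 by 0.23 ± 0.07 and 0.42 ± 0.07. The direction of Psmd2 in controls turned with library totals (-0.10, edgeR adjusted p = 0.24). Psmd4, a ubiquitin receptor, rose by 0.71 ± 0.08 and 0.78 ± 0.08. Psmd8 and Psmd13 had low responses, at 0.49 and 0.36 in controls and 0.29 and 0.28 in labelled knockout libraries. Psmd13 overlaps Sirt3 on the opposite strand, which had 2333 counts in all.

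The highest response of the whole set was that of Psme2, which encodes the beta subunit of the PA28 activator (ENSMUSG00000079197, chr14:55587441-55591113). Psme2 had 57.7, 57.2 and 65.4 CPM in vehicle controls, 90, 64.4 and 62.6 in labelled knockout vehicle, 588, 710 and 673 in stimulated controls and 709, 687 and 668 in stimulated labelled knockout libraries. The log2 differences were 3.45 ± 0.13 (edgeR adjusted p = 1.35e-12) and 3.25 ± 0.13 (2.28e-12). Its partner Psme1, the alpha subunit (chr14:55578123-55581529), had 80.4, 82.8 and 90.6 CPM in vehicle controls, 121, 89.3 and 86.9 in labelled knockout vehicle, 341, 424 and 383 in stimulated controls and 507, 472 and 471 in stimulated labelled knockout libraries. It rose by 2.18 ± 0.12 and 2.29 ± 0.12. Vehicle and stimulated libraries were far apart for both genes, and Psme2 went from below Psme1 to above it in CPM per kilobase in controls, from 34.1 against 38.3 to 372 against 173. Psme2b, a near-identical copy of Psme2, had 3.51, 3.71 and 3.48 CPM in vehicle controls and 23.2, 26.1 and 25.6 in stimulated controls, and reads could have been split between the copies. Psme1 overlaps Emc9 on the opposite strand, which had 2638 counts in all.

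The other activators rose less. Psme3, the nuclear PA28 form, rose by 0.59 ± 0.09 and 0.34 ± 0.09. Psme4, which encodes the large single-chain activator PA200 (ENSMUSG00000040850, chr11:30771726-30880361), had 19.0, 19.5 and 16.2 CPM in vehicle controls, 17.9, 20.7 and 18.1 in labelled knockout vehicle, 33.1, 33.1 and 33.4 in stimulated controls and 43.5, 46.4 and 43.4 in stimulated labelled knockout libraries. It rose by 0.86 ± 0.09 in controls and 1.23 ± 0.09 in labelled knockout libraries.

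The chaperones of core assembly did not move as a set. Psmg1 and Psmg2 form a pair that guides alpha ring assembly, and Psmg3 and Psmg4 form another. Psmg1 (ENSMUSG00000022913, chr16:95979933-95990960) had 4.63, 4.75 and 4.60 CPM in vehicle controls, 5.40, 3.66 and 4.12 in labelled knockout vehicle, 5.05, 4.96 and 6.11 in stimulated controls and 3.29, 2.76 and 2.84 in stimulated labelled knockout libraries. The difference was 0.21 ± 0.15 in controls (edgeR adjusted p = 0.24), whereas Psmg1 fell by 0.56 ± 0.17 on the log2 scale in labelled knockout libraries (adjusted p = 0.0077). All 3 stimulated labelled knockout libraries were below the other 9. Psmg2 had 19.9, 18.7 and 19.5 CPM in vehicle controls, 28.1, 18.8 and 20.1 in labelled knockout vehicle, 17.7, 23.2 and 22.7 in stimulated controls and 16.4, 18.4 and 18.6 in stimulated labelled knockout libraries. Psmg2 did not pass the test in either genotype (0.13 ± 0.14 and -0.32 ± 0.14, edgeR adjusted p = 0.42 and 0.052). Psmg3 had 15.9, 16.4 and 16.3, then 22.3, 17.1 and 14.3, then 25.6, 30.8 and 29.1, and then 26.8, 28.1 and 25.8 CPM in the same group order. It rose in both genotypes, by 0.82 ± 0.13 and 0.59 ± 0.13. Psmg4 rose in controls by 0.57 ± 0.16, and in labelled knockout libraries its difference was 0.08 ± 0.16 (edgeR adjusted p = 0.66). Its interaction was -0.49 ± 0.23 (0.19). Without replicate 1 of the labelled knockout vehicle group, Psmg4 rose there by 0.31 ± 0.13 (edgeR adjusted p = 0.037) and Psmg1 fell by 0.40 ± 0.17 (adjusted p = 0.041).

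**Figure D3:**
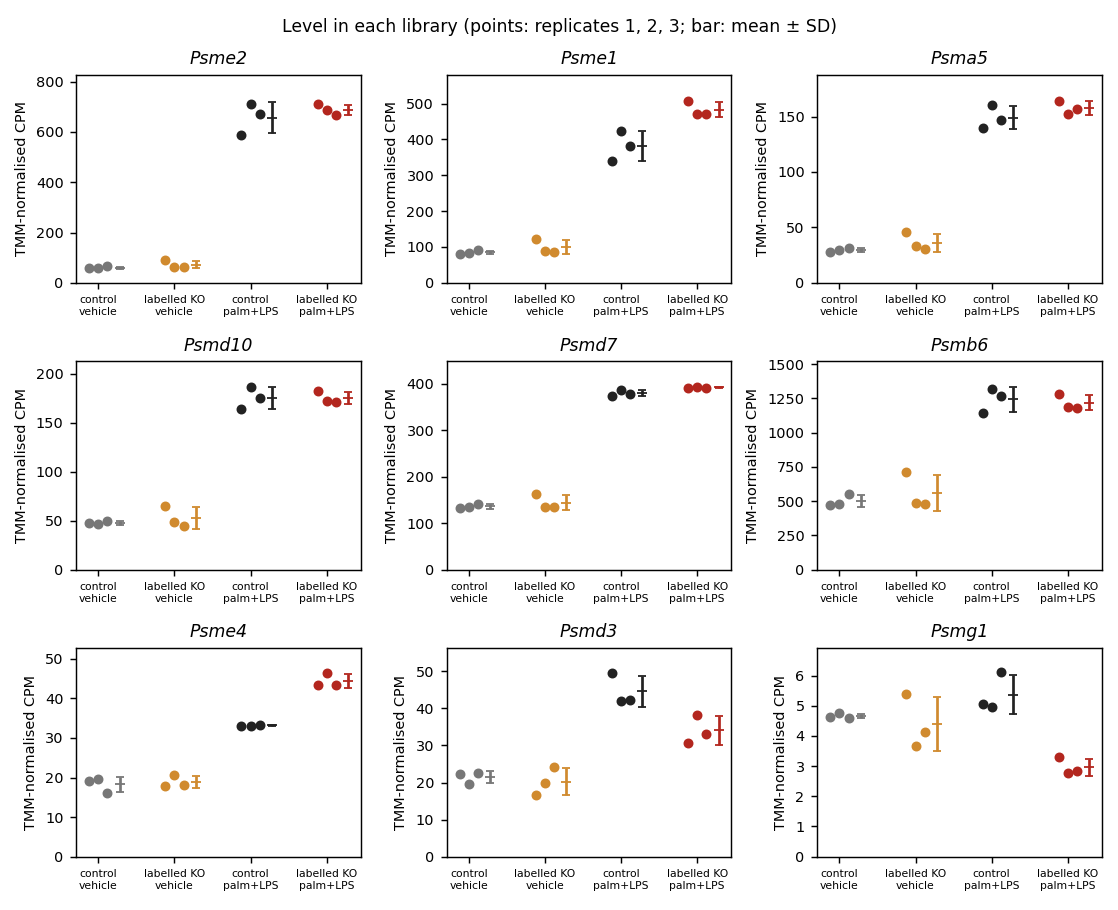
TMM-normalised CPM of 9 genes in each library, with 3 points a group, a bar for the mean ± SD beside them and axes starting at 0. Vehicle and stimulated libraries separate for Psme2, Psme1, Psma5, Psmd10, Psmd7 and Psmb6, and among the stimulated libraries the genotypes do not overlap for Psme1, Psmd7, Psme4, Psmd3 and Psmg1.

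Levels differed between subunits that occur in equal number. In vehicle controls the core genes ranged from 15.3 CPM per kilobase of exon for Psma3 to 267 for Psmb6, a 17.5-fold range, and the cap genes from 4.34 for Psmd3 to 458 for Psmd8. The order at the top was Psmd8, Psmb6 (267), Psmb1 (188), Psmb2 (107) and Psma2 (106), and the levels of Psmb2 and Psma2 did not differ beyond their spread. At the bottom were Psmd3, Psmg1 at 3.47 and Psme4 at 2.18. With palmitate plus LPS the range within the core in controls was 20.2-fold, from 33.0 for Psmb3 to 665 for Psmb6. Exon length here is that of all exons counted for a gene, so a gene with long or rarely used exons has a lower value per kilobase.

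**Figure D4:**
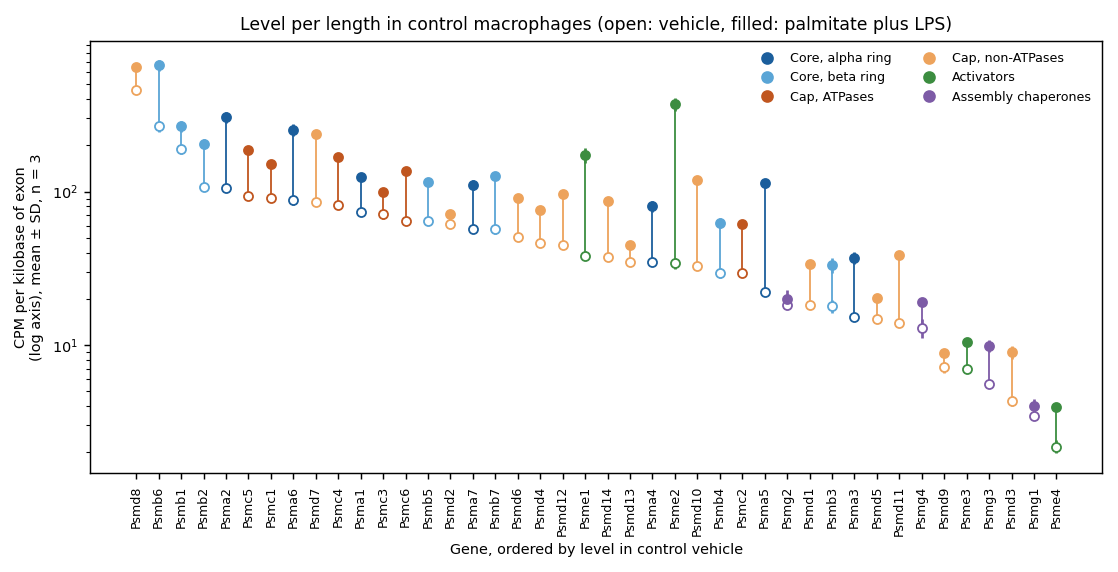
Level per kilobase of exon in control libraries, on a log axis, for the 42 genes ordered by their level in vehicle (open symbols) and joined to their level with palmitate plus LPS (filled symbols), mean ± SD of 3 libraries. Psme2 and Psma5 move up the most from the middle of the order, and the order at the left end is led by Psmd8 and Psmb6.

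Factors that act with the proteasome moved with it in part. Of 12 measured proteasome-associated genes (assembly factors, receptors and deubiquitinases), 11 rose and 0 fell in controls and 8 rose and 0 fell in labelled knockout libraries, with medians of 0.59 and 0.34. Of all tested genes, 32% rose and 34.7% fell in controls and 33.7% rose and 35.6% fell in labelled knockout libraries, which is the background for the lists that follow as well. Txnl1, a redox protein bound to the cap, rose by 1.70 ± 0.10 and 1.54 ± 0.10. Adrm1, a ubiquitin receptor of the cap, rose by 0.96 ± 0.09 and 0.95 ± 0.09, and Pomp, which guides maturation of the core, by 1.03 ± 0.14 and 0.75 ± 0.14. Usp14, a cap deubiquitinase, was the one gene of the list that did not pass the test in controls (0.11 ± 0.08, edgeR adjusted p = 0.20). Of 13 ubiquitin, activating-enzyme and shuttle genes, 10 rose and 0 fell in controls and 10 rose and 1 fell in labelled knockout libraries. Ubb, which encodes ubiquitin, rose by 1.34 ± 0.12 and 1.14 ± 0.12.

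Nrf1, encoded by Nfe2l1, is the transcription factor that raises proteasome genes when proteolysis falls short. It is processed by Ngly1 and cleaved by Ddi2. Of 7 such regulators and their small Maf partners, 5 rose and 2 fell in each genotype. Nfe2l1 had 83.7, 78.7 and 76.2 CPM in vehicle controls, 47.8, 80.6 and 84.8 in labelled knockout vehicle, 215, 167 and 187 in stimulated controls and 203, 232 and 202 in stimulated labelled knockout libraries. It rose by 1.25 ± 0.16 and 1.58 ± 0.16, without overlap. Replicate 1 of the labelled knockout vehicle group was the lowest library for Nfe2l1, and it was the highest vehicle library for 36 of the 42 proteasome genes. Other genes were shifted there in both directions. The ribosomal protein sum was high (6931 CPM), and the macrophage marker Itgam had 1772 raw counts, against 4346 and 4176 in the others of its group. A link between Nfe2l1 and the proteasome genes in that library was not tested. Ddi2 moved the other way, from 103 to 104 CPM in vehicle controls to 41.5 to 43.3 in stimulated controls, and fell by 1.29 ± 0.09 and 1.63 ± 0.09 on the log2 scale. Nfe2l2, which encodes the related factor Nrf2, fell by 0.39 ± 0.08 and 0.46 ± 0.08.

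Between genotypes in vehicle, none of the 42 genes passed the test, while 2.11% of all tested genes were higher and 1.69% lower in the labelled knockout libraries. In edgeR 6 of the 42 had an unadjusted p under 0.05, as did 2064 of all 12914 tested genes. DESeq2 called 1, Psmd1, higher, as it did 386 of 12162 tested genes. The estimates were positive for 39 of 42 genes with a median of 0.15, against 0.01 over all genes. Without replicate 1 of the labelled knockout vehicle group, 23 were positive and 19 negative, and the median was 0.01. Psmd1, a base scaffold subunit, had 131, 133 and 132 CPM in controls and 153, 154 and 149 in labelled knockout libraries. Its level in replicate 1 was thus close to the others of its group. The libraries did not overlap, with a difference of 0.20 ± 0.06 (edgeR adjusted p = 0.12 with all libraries and 0.046 without replicate 1). With all libraries Psmd1 therefore did not pass in edgeR. Without replicate 1, 431 of all 13148 tested genes were higher and 358 lower. Psmd1 overlaps Htr2b on the opposite strand, which had 7702 counts over all libraries. Psmd11 was the other gene of the 42 without overlap, at 88.2 to 91.2 against 92.6 to 113 CPM, with a difference of 0.15 ± 0.08 (edgeR adjusted p = 0.39). Among 30 ribosomal protein genes 4 were without overlap in this comparison, and all tested genes were not counted.

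Under palmitate plus LPS, 1 gene was higher in labelled knockout libraries (Psme4) and 3 were lower (Psmg1, Psmd5 and Psmd3), while 10% of all tested genes were higher and 6.1% lower. The share of the 42 genes was below that of all genes in the upward direction and close to it in the downward direction. Psme4 was higher by 0.42 ± 0.09 (edgeR adjusted p = 0.0048), and all 3 labelled knockout libraries, at 43.4 to 46.4 CPM, lay above the controls at 33.1 to 33.4. Psmg1 was lower, with a difference of -0.86 ± 0.17 (0.0024). Psmd5, a cap assembly chaperone, had 55.2, 55.7 and 55.0 CPM in vehicle controls, 55.5, 54.9 and 57.1 in labelled knockout vehicle, 77.3, 73.5 and 78.8 in stimulated controls and 60.8, 63.0 and 65.7 in stimulated labelled knockout libraries. The 2 vehicle groups overlapped and the 2 stimulated groups did not, with a difference of -0.28 ± 0.07 (edgeR adjusted p = 0.014). Psmd3, a lid subunit, had 22.3, 19.7 and 22.7, then 16.7, 20 and 24.1, then 49.5, 42.1 and 42.4, and then 30.7, 38.3 and 33.2 CPM in the same group order. The stimulated groups did not overlap, with a difference of -0.39 ± 0.12 (0.044). The Psmd3 call was lost when any one of 9 libraries was left out, with adjusted p of up to 0.17, and the Psmd5 call when stimulated control replicate 3 (0.073) or stimulated labelled knockout replicate 1 (0.071) was. The Psmd5 call was also lost without the filter on low counts (-0.28, edgeR adjusted p = 0.0595). Psme1 had a difference of 0.34 ± 0.11 (0.056) and its stimulated groups did not overlap.

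**Figure D5:**
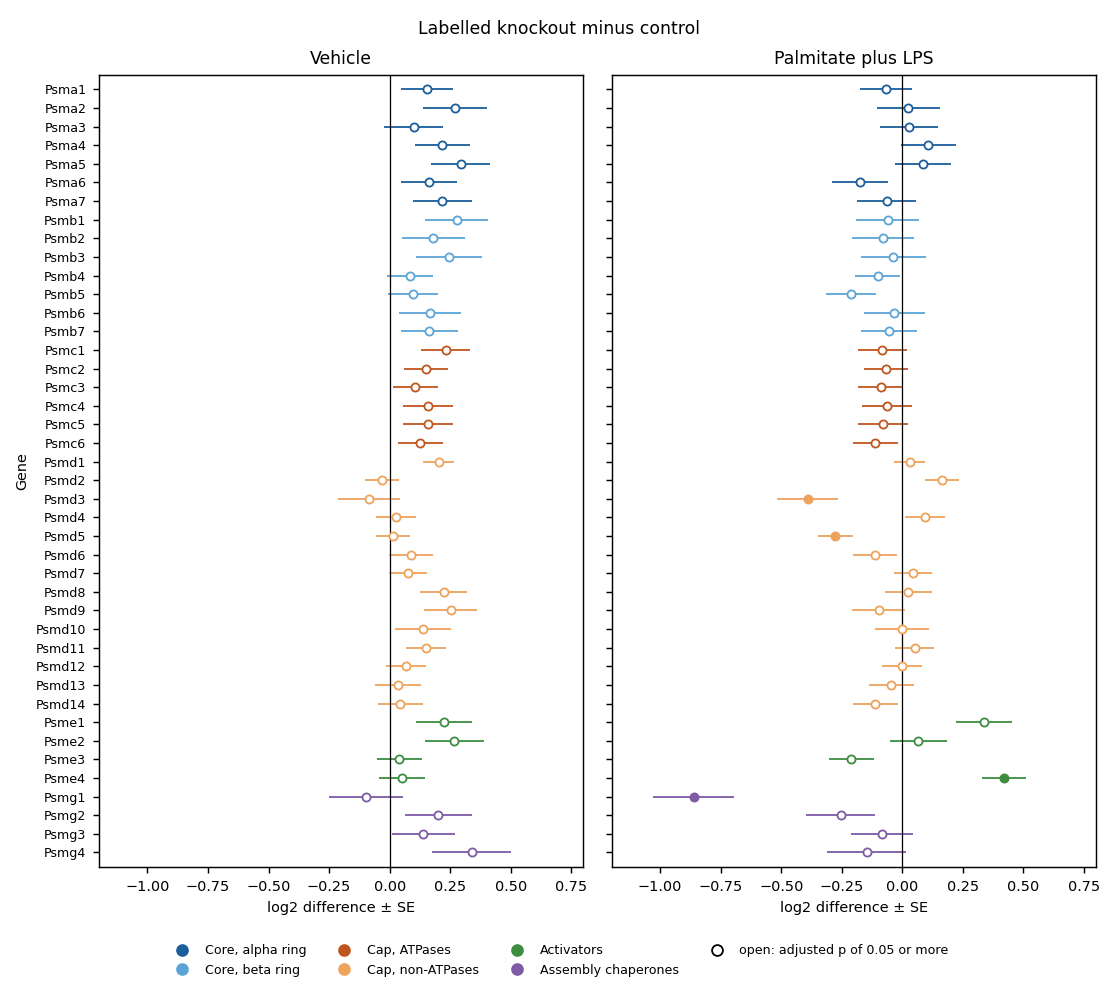
Log2 difference between labelled knockout and control libraries (± SE) in vehicle (left) and with palmitate plus LPS (right), coloured by class, with open symbols where the adjusted p was 0.05 or more. In vehicle nearly all estimates are small and positive, and with palmitate plus LPS the filled symbols are Psmd3, Psmd5, Psme4 and Psmg1.

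Replicate 1 of the labelled knockout vehicle group is in neither group of this contrast. It enters through the shared spread, the scaling and the filter that sets which genes are tested. Without this library 3 genes were higher (Psmd2, Psme1 and Psme4) and 7 lower (Psma6, Psmb5, Psmd3, Psmd5, Psme3, Psmg1 and Psmg2), while 17.1% of all tested genes were higher and 13.9% lower. The median over the 42 genes was -0.07 without it and -0.06 with it. The fibroblast or mesothelial marker list moved with this contrast, with 6 of its 10 genes higher in labelled knockout libraries and none lower, at sums of 144 to 167 CPM in stimulated controls and 199 to 348 in stimulated labelled knockout libraries. Of the neutrophil markers, 2 of 5 tested were higher and 1 lower, at sums of 123 to 135 and 154 to 192 CPM. Their part in the differences of Psme4, Psmg1, Psmd5 and Psmd3 was not tested.

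The test of whether treatment acted differently in the genotypes gave no call among the 42 genes, while 4.7% of all tested genes had a higher response and 3.35% a lower one in labelled knockout libraries. In edgeR 6 of the 42 genes had an unadjusted p under 0.05, as did 3456 of all 12914 tested genes. DESeq2 called 2 lower, Psmd5 and Psmg1, as it did 642 of 10660 tested genes. The response was smaller in labelled knockout libraries for 38 of 42 genes by the estimate, with a median of -0.22, against -0.01 over all genes. Without replicate 1 of the labelled knockout vehicle group the median was -0.06, and 2 genes passed with a smaller response, Psmd3 (-0.43, edgeR adjusted p = 0.035) and Psmd5 (-0.30, adjusted p = 0.026). In that fit 735 of all 13148 tested genes had a lower response and 1017 a higher one. The lowest adjusted p with all libraries was that of Psmg1 (-0.76 ± 0.23, edgeR adjusted p = 0.050), and Psme4 had the highest positive estimate (0.37 ± 0.13, 0.090). The genotype and treatment comparisons share libraries and are not independent.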

How the data were processed

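Transcripts in 12 libraries (Clontech SMARTer v1 kit on total RNA, per the labels' protocols) were compared between 4 groups of 3. Per the submitters' processing notes, the tools were STAR 2.0.4b and featureCounts 1.45 of Subread, after bcl2fastq 2.0, on the GRCm38 build. Options, annotation release and strandedness were not given in the sources used here. The deposited tables give each gene's whole-number read count, exon coordinates and exon length, per the file headers. They also hold the authors' CPM, which equals the count scaled to the library total, and the authors' RPKM, which is that CPM per kilobase of exon. Neither entered a test.

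Counts were filtered with filterByExpr (12914 genes, at least 99.918% of each library's counts), scaled by TMM and fitted with the robust quasi-likelihood model of edgeR 4.0.16 (R 4.3.3), with 1 mean per group over all 12 libraries. P-values were adjusted by the Benjamini-Hochberg method over all genes of each of 5 comparisons, with a threshold of 0.05. The interaction is the response in labelled knockout libraries minus that in controls. Log2 differences are given ± SE and levels as TMM-normalised CPM, also per kilobase of deposited exon length. The scripts were tested on simulated counts.

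The gene set and all lists were chosen with earlier results of these data known. Values in every library were given for up to 3 genes of each class with the highest response, for genes past the threshold in a genotype comparison, and for genes that passed in no treatment comparison. Up to 4 genes of each other list were named by smallest p-value, and genes named beyond that were chosen after their values were seen. Of 13 proteasome-associated genes listed, 12 were matched. A result withheld for evaluation is not reported here. Replicate libraries differed beyond counting noise. Same-numbered libraries of different groups did not deviate together (0 of 18 pairs had a correlation over 0.1, range -0.309 to 0.067), so numbers were not taken as pairs. Alternatives were other scalings, DESeq2 1.42.0, other filters, a fit without robust dispersions, a replicate block, fits of only the 2 groups compared, and leaving out each library.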

Additional observations from a re-analysis of the deposited data

Results flagged for a closer look

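The treatment response of 5 genes that work with the proteasome differed between the genotypes by the interaction test of edgeR (Benjamini-Hochberg adjusted over 12914 genes), while none of the 42 proteasome genes passed it. Of 12 proteasome-associated genes 1 was higher, of 13 ubiquitin and shuttle genes 2 were lower, and of 7 Nrf1 regulators and partners 1 was higher and 1 lower. Of all tested genes, 4.7% had a higher response and 3.35% a lower one. Fbxo7, an F-box protein that binds the proteasome inhibitor Psmf1, responded more in labelled knockout libraries, by 0.43 ± 0.11 on the log2 scale (edgeR adjusted p = 0.023), with 49.6 to 52.7 CPM in stimulated controls and 68.2 to 70.5 in stimulated labelled knockout libraries. Mafk, a small Maf partner of Nrf1 and Nrf2, responded more (0.66 ± 0.16, edgeR adjusted p = 0.025).

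The ubiquitin shuttle genes Ubqln1 and Ubqln2 responded less in labelled knockout libraries, by -0.49 ± 0.15 (edgeR adjusted p = 0.049) and -0.63 ± 0.17 (0.032). The small Maf gene Maff did so too, at -1.22 ± 0.35 (0.045), from below 1 CPM in every vehicle library to 7.82 to 8.42 CPM in stimulated controls and 3.06 to 4.17 in stimulated labelled knockout libraries. For Fbxo7, Mafk, Ubqln1, Ubqln2 and Maff the call was lost with the replicate block, at adjusted p of 0.0622, 0.0622, 0.0995, 0.069 and 0.0794, and when single libraries of several groups were left out, at adjusted p of up to 0.0786, 0.0804, 0.125, 0.0972 and 0.124 over all alternatives. The directions held in all alternatives run.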

How the results depend on the processing

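Scaling mattered most for the weaker responses. With library totals, the median of all genes was -0.38 and -0.42 for the response in controls and in labelled knockout libraries, and 2644 genes rose and 6416 fell in controls (4132 and 4480 with TMM) and 2676 rose and 6570 fell in labelled knockout libraries (4356 and 4600). With upper-quartile scaling the medians were -0.25 and -0.29, with 3191 rising and 5641 falling, and 3281 rising and 5894 falling. Between genotypes under palmitate plus LPS, 841 genes were higher and 1578 lower with library totals (1293 and 788 with TMM) and 1098 and 992 with upper-quartile scaling. In the interaction 388 were higher and 788 lower with library totals (607 and 432 with TMM) and 491 and 536 with upper-quartile scaling. Responses of proteasome genes that reversed with library totals were those of Psmd2 (-0.103) and Psmd9 (-0.0172) in controls, and of Psmc3 (-0.0596), Psmd5 (-0.191), Psmd8 (-0.0675), Psmd13 (-0.0834) and Psme3 (-0.033) in labelled knockout libraries. Psmd5 also reversed there with upper-quartile scaling (-0.06). The medians of all genes were lower under these scalings as well, and which scaling fits these data was not tested.

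The count of proteasome genes that rose lay between 33 and 40 in controls and between 27 and 39 in labelled knockout libraries over all alternatives. Genes falling in labelled knockout libraries numbered 4 with library totals, 3 with upper-quartile scaling and 2 without the filter, and 1 to 2 with a library left out. The genotype difference in vehicle gave 1 higher gene with DESeq2, and 0 to 1 with a library left out. Under palmitate plus LPS it gave 2 higher genes with library totals, 2 without the filter, and 3 higher and 6 lower when only the 2 groups were fitted. In that last fit 2103 of all 11743 tested genes were higher and 1708 lower. With a library left out it gave 1 to 3 higher and 1 to 7 lower genes. The lowest count came without stimulated control replicate 3 or stimulated labelled knockout replicate 1, and the highest, in both directions, without labelled knockout vehicle replicate 1. Without the latter, 2251 of all 13148 tested genes were higher and 1829 lower. The interaction gave 1 lower gene with library totals, 1 with upper-quartile scaling, 1 without the filter, 1 with the filter at 10 CPM in 3 libraries and 2 with DESeq2. With a library left out it gave 0 to 1 higher genes (1 without labelled knockout vehicle replicate 2) and 0 to 3 lower genes (3 without replicate 3 of that group). Over all tested genes, 738 of 13131 were higher without replicate 2 and 939 of 13138 lower without replicate 3. The cause of these changes was not tested. Psmg1 was not tested with the 10 CPM filter.

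With the replicate block, 40 genes rose in controls, 36 rose and 1 fell in labelled knockout libraries, and under palmitate plus LPS 1 was higher and 2 were lower between genotypes. The block ended the calls of Psmd3 between genotypes (-0.394, edgeR adjusted p = 0.0769) and of Psmd5 as a response in labelled knockout libraries (0.178, adjusted p = 0.0603). One of 12 libraries correlated best with its own number. The genes named outside the 42 were recomputed under the same alternatives, a step chosen after seeing the data. Psmg1, at 2.76 to 6.11 CPM, is the least deeply counted of the genes with a genotype difference.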

Other observations

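Genes of the peptide loading pathway, which takes proteasome products to MHC class I, rose in both genotypes: 6 of 6 in controls and 6 of 6 in labelled knockout libraries, with medians of 2.41 and 2.75, while 32% of all tested genes rose in controls and 33.7% in labelled knockout libraries. Tap1, a subunit of the peptide transporter, had the highest response, at 4.69 and 5.04. Between genotypes under palmitate plus LPS, 5 of the 6 were higher in labelled knockout libraries and none lower, with a median of 0.51, while the 42 proteasome genes had 1 higher, 3 lower and a median of -0.06, and 10% of all tested genes were higher and 6.1% lower. Among the inducible catalytic subunits Psmb10 passed that test (0.42 ± 0.12, edgeR adjusted p = 0.029), but the call was lost with the replicate block (adjusted p = 0.0621) and when any of 5 stimulated libraries was left out (adjusted p of up to 0.103), which were control replicates 1 and 3 and labelled knockout replicates 1 to 3. Psmb9 had 0.32 ± 0.12 (0.089) and Psmb8 0.03 ± 0.11 (0.90).

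Of 30 ribosomal protein genes, 13 rose and 1 fell in controls, with a median of 0.33, and 4 rose and 6 fell in labelled knockout libraries, with a median of -0.14. Of all tested genes, 32% rose and 34.7% fell in controls and 33.7% rose and 35.6% fell in labelled knockout libraries. Replicate 1 of the labelled knockout vehicle group was the highest vehicle library for their sum as well as for that of the proteasome genes. The tissue-restricted subunit Psma8, known from testis, was near the filter, at 0.946 to 2.65 CPM over the 12 libraries, and Psmb11, known from thymic epithelium, had 0 counts in all.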
